A study of Mus musculus with 6 samples.

Results

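Chemokines are small secreted proteins that direct the migration of leukocytes, and the genes described here are the chemokine ligands and chemokine receptors of the mouse lung. They were taken as the probe sets with a single platform symbol made of a family stem followed directly by a number, with the stems Ccl, Cxcl, Cx3cl and Xcl for ligands and Ccr, Cxcr, Cx3cr, Xcr and Ackr for receptors. Ccl19, Ccl21a, Ccl27a and Cxcl15 were left out. The rule gave 82 probe sets for 51 genes, out of 34945 probe sets with 1 symbol for 18193 genes. Of the 51 genes, 31 were ligands (48 probe sets) and 20 were receptors (34 probe sets), and each gene is represented by its probe set with the highest mean over the 6 arrays.

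Lungs of adult female F1 mice of 2 genotypes were compared on Affymetrix arrays, 3 arrays per genotype, and the question was how basal expression differs between them. The AKR_F1 group came from AKR/J and FVB/NJ parents and the DBA_F1 group from DBA/2J and FVB/NJ parents, so every mouse had 1 chromosome set from FVB/NJ and the groups differed only in the other set. All mice were killed by cervical dislocation under Avertin and the tissue was snap frozen, without other treatment named. The labels do not say that each array came from its own animal, so p-values here measure the difference against the spread between these samples, which may be technical.

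A chemokine binds a receptor with 7 membrane-spanning segments that signals through Gi proteins, and the cell moves up the gradient. The families are named for the spacing of their first cysteines: CC, CXC, CX3C and C (X stands for any residue). Inflammatory chemokines are switched on by infection or injury, often through the transcription factor NF-kappaB, while homeostatic chemokines are made all the time and hold resident cells in place or guide lymphocytes to their niches. Atypical receptors (Ackr) bind chemokines without Gi signalling and take them up or carry them across cells. In the lung, endothelial cells, airway epithelium and macrophages are the main sources of chemokines in the absence of infection.

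The signal is a log2 value per probe set, so a difference of 1 is a doubling. Signals of different probe sets depend on their probes and are not compared as levels between genes. In a bulk tissue array, fewer cells of a type and less RNA per cell cannot be told apart. The 7 lung markers examined, among them the surfactant genes Sftpc and Sftpb, were bright on every array. Their mean was 13.00 to 13.09 in AKR_F1 and 12.86 to 12.93 in DBA_F1, without overlap. Tissue other than lung also differed between arrays. The mean of 7 squamous epithelium markers was 4.65 and 4.81 on AKR_F1 replicates 2 and 1 and 8.87 to 9.46 on the other 4 arrays. The mean of 6 skeletal muscle markers split the arrays in the same way. The squamous marker Krt6a (5.62 to 5.83 on all arrays) did not, nor did the muscle marker Myh4. Myh4 read 3.50 to 3.97 in AKR_F1 and 4.49 to 4.82 in DBA_F1. The mean of 7 thymocyte markers was 6.94 on AKR_F1 replicate 3, 5.87 on AKR_F1 replicate 1 and 4.81 to 5.0025 on the other arrays. The mean of 4 neutrophil markers was 10.46 on DBA_F1 replicate 3 and 8.37 to 9.36 elsewhere. The mean of 6 adipocyte markers was 6.64 to 7.34 in AKR_F1 and 8.24 to 9.08 in DBA_F1.

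No chemokine or chemokine receptor was called different between AKR_F1 and DBA_F1 lung in the test over all genes. On AKR_F1 replicate 3, 3 of the 37 tested members (Ccl25, Ccr9 and Ccl3) were more than 1 log2 above the mean of their group mates, beside 1.64% of all tested genes. On DBA_F1 replicate 3, 2 of the 37 (Ccr1 and Cxcr2) were, beside 0.189%. Other arrays and low values, such as Cxcl13 on DBA_F1 replicate 1, were not counted. The smallest adjusted p was that of the mucosal chemokine Cxcl17, whose signal was 1.41-fold lower in AKR_F1 as measured (adjusted p = 0.0748). The largest differences were those of Ccl25 and its receptor Ccr9, at about 1 log2 toward AKR_F1. Without AKR_F1 replicate 3 they were 0.18 and 0.37. Of the 51 genes, 37 had a mean signal above the filter of 4.72 (20 ligands and 17 receptors) and were tested in a limma fit over 27022 probe sets. At a Benjamini-Hochberg adjusted p under 0.05, 0 of 20 ligands and 0 of 17 receptors were called, against 2.48% of all 13202 tested genes. At an unadjusted p under 0.05, 4 of 20 ligands and 3 of 17 receptors passed, together 18.9% against 19.1% of all tested genes. The groups did not overlap for 4 ligands and 2 receptors, together 16.2% against 24.2% of all tested genes, so both shares were near or below the background. The median difference (AKR_F1 minus DBA_F1, log2) was -0.020 for ligands and 0.0015 for receptors, beside 0.015 for all tested genes.

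The typical member had a wider error than the typical tested gene. The median standard error (SE) of a difference was 0.14 for the 37 tested members and 0.078 for all tested genes. A single array weighed heavily on some calls: without AKR_F1 replicate 3, Ccl9 (-0.54, adjusted p = 0.0403) and Ccl22 (-0.48, adjusted p = 0.0481) were called, and without DBA_F1 replicate 1, Cxcl13 was (-1.32, adjusted p = 0.0104). With array weights Cxcl17 was called (-0.52, adjusted p = 0.0482).

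**Figure D1:**
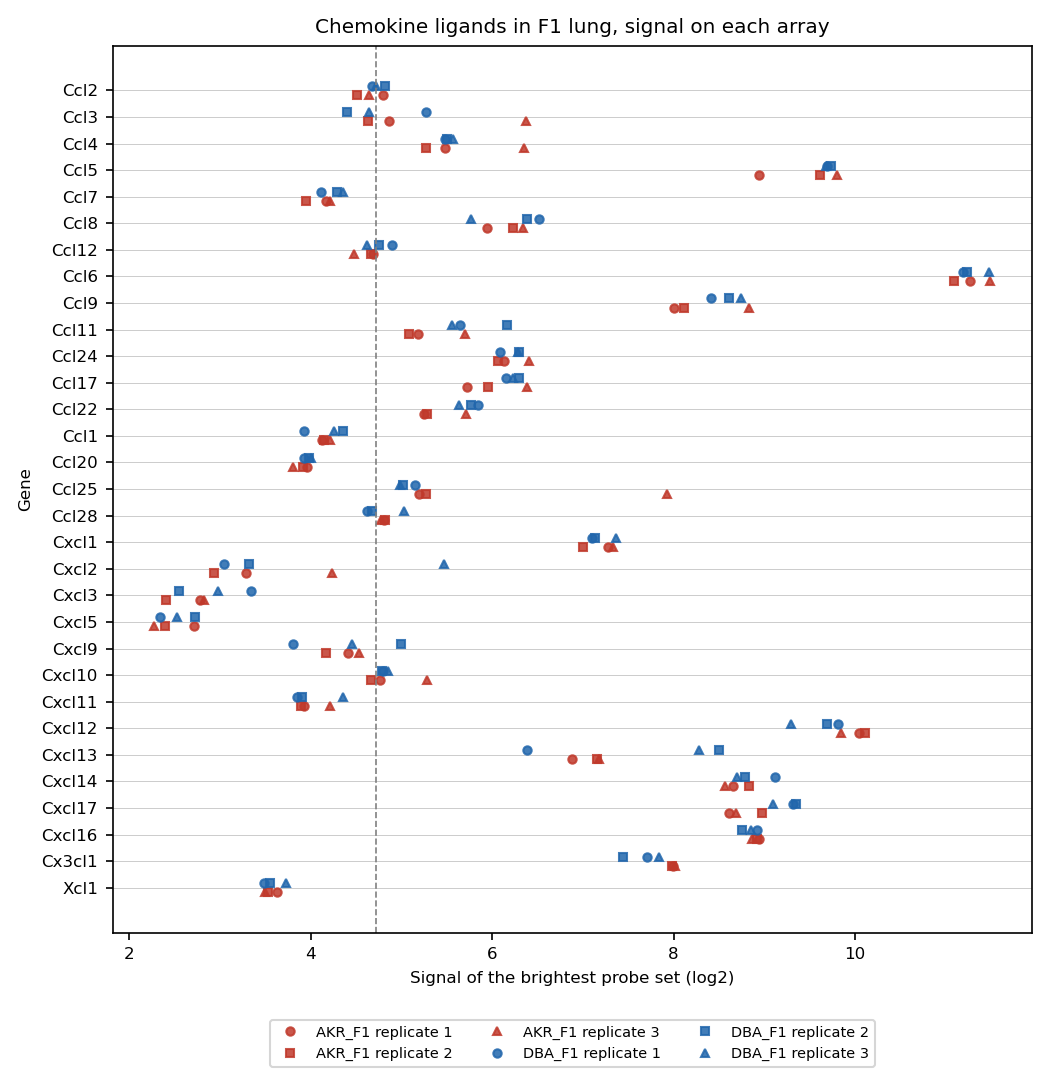
Signal (log2, horizontal axis) of the brightest probe set of each of the 31 ligand genes (vertical axis) on the 6 arrays, in red for AKR_F1 and blue for DBA_F1, with a symbol for each replicate; the dashed line is the filter at 4.72. Most genes have overlapping groups, and the single triangles far to the right are AKR_F1 replicate 3 for Ccl25, Ccl3 and Ccl4 and DBA_F1 replicate 3 for Cxcl2.

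Promoters of 7 members are shown first, as the 250 bases before a transcription start in the RefSeq annotation of GRCm38.p6, written 5′ to 3′ in gene orientation. Of the 51 genes, 38 had an entry. Ccl25 (at 1 of its listed starts, chr8:4349338-4349587, + strand) and Ccr9 (chr9:123766961-123767210, + strand) are given because both were high on the same array. Cxcl1 (chr5:90890995-90891244, + strand) and Cxcl2 (chr5:90903649-90903898, + strand) are given as neighbouring inflammatory genes. Cxcl12 (chr6:117168285-117168534, + strand), Cx3cl1 (chr8:94771930-94772179, + strand) and Ackr1 (chr1:173333504-173333753, - strand) are given as examples of members whose groups did not overlap. Capitals mark matches, on either strand, to TATAAA, to GGGCGG or to the NF-kappaB consensus.
Ccl25: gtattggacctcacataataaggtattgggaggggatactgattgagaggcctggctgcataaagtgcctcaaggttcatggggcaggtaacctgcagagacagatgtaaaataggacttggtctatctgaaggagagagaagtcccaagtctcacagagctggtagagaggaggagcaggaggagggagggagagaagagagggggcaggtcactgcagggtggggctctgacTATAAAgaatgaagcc
Ccr9: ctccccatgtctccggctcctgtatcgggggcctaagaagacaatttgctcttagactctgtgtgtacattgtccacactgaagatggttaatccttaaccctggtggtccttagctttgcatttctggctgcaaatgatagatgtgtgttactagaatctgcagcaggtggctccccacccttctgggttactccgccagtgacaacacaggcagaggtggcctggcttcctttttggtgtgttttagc
Cxcl1: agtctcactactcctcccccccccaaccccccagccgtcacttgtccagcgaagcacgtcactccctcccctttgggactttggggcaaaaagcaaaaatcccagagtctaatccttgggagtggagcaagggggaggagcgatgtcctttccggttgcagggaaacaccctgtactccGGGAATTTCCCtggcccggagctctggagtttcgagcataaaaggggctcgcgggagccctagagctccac
Cxcl2: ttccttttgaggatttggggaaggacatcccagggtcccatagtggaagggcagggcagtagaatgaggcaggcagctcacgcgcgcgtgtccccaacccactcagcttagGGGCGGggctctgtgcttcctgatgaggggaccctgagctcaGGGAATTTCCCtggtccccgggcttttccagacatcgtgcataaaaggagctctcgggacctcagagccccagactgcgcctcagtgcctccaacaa
Cxcl12: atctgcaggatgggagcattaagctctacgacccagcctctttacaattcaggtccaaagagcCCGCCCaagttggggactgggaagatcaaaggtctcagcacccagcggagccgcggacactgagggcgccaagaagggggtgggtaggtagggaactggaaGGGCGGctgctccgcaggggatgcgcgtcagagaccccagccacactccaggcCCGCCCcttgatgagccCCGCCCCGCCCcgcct
Cx3cl1: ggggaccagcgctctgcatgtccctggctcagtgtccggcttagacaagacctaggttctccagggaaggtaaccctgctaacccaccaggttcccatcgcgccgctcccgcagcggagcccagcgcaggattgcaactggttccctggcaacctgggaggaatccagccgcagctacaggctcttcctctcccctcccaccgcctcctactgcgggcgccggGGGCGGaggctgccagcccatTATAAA
Ackr1: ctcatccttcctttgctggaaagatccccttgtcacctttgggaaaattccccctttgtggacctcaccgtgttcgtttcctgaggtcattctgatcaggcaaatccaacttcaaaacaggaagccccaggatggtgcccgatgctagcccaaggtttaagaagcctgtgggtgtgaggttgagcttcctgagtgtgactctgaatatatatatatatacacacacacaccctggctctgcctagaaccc
Cxcl1 and Cxcl2 each hold an NF-kappaB match, and Cxcl2 also holds GGGCGG. Cxcl12 holds GGGCGG matches on both strands (overlapping at the 3′ end), and Cx3cl1 holds both GGGCGG and TATAAA. Ccl25 holds TATAAA at this start and none of the 3 motifs at its other listed start (chr8:4324960-4325209, + strand). Ccr9 and Ackr1 hold none of them in this window. The NF-kappaB consensus was found in 6 of the 21 ligand promoters in the table (Ccl9, Ccl20, Cxcl1, Cxcl2, Cxcl3 and Cxcl10) and in 3 of 17 receptor promoters (Ackr2, Ccr3 and Ccr6), beside 4.46% of the 27025 genes with a promoter. TATAAA was found for 8 ligands and 4 receptors, beside 14.3% of all genes, and GGGCGG for 4 ligands and 2 receptors, beside 35.4%. These matches describe letters in the reference strain and not binding.

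Among the homeostatic ligands, Cxcl12 retains stem cells and lymphocytes in their niches through Cxcr4. Its brightest probe set read 10.04, 10.11 and 9.85 in AKR_F1 and 9.82, 9.70 and 9.29 in DBA_F1. Values are given in the order of the replicate numbers here and below. The groups did not overlap, but the gap between the nearest arrays (9.85 and 9.82) was small, and the difference of 0.40 ± 0.14 (SE, n = 3 per group) was not called (limma adjusted p = 0.198). The 2 other probe sets of Cxcl12 differed by -0.34 and 0.19, so that its direction depends on the probe set, and the mean of its probe sets differed by 0.080. Cxcl13, which draws B cells into follicles through Cxcr5, read 6.88, 7.15 and 7.18 in AKR_F1 and 6.39, 8.50 and 8.28 in DBA_F1. DBA_F1 replicates 2 and 3 were thus above all AKR_F1 arrays and DBA_F1 replicate 1 below all of them, with a difference of -0.65 ± 0.51 (adjusted p = 0.55). On its other probe set DBA_F1 replicate 1 was again far below its group mates (6.34, 8.63 and 8.75). The mean of the B cell markers Ms4a1, Cd79a, Cd79b and Blk was 8.12 on DBA_F1 replicate 1 and 7.86 and 7.76 on replicates 2 and 3. The part of B cells or lymphoid tissue in the Cxcl13 values was not tested. Cxcl14, an epithelial chemokine, read 8.57 to 8.83 in AKR_F1 and 8.70 to 9.12 in DBA_F1 (-0.18 ± 0.12, adjusted p = 0.468).

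Cxcl17 is made by the mucosa of the airways and upper digestive tract. It read 8.62, 8.98 and 8.69 in AKR_F1 and 9.32, 9.35 and 9.10 in DBA_F1, so that every DBA_F1 array was above every AKR_F1 array. The difference was -0.49 ± 0.11, with a 95% interval from -0.75 to -0.23 and an adjusted p of 0.0748. The adjusted p lay between 0.0621 and 0.249 when 1 array was left out. The mean of the squamous markers on AKR_F1 replicate 3 (9.28) was at the level of DBA_F1. Its Cxcl17 signal was within the range of AKR_F1 replicates 1 and 2, and against DBA_F1 this array alone differed by -0.56. The part of squamous epithelium in the Cxcl17 difference was not tested. The adipocyte mean does not overlap between the groups, so as a covariate it is nearly tied to genotype and widens the error of every gene named with it. With it Cxcl17 was at -0.51 ± 0.34 (adjusted p = 0.957).

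Of the membrane-anchored ligands, fractalkine (Cx3cl1) is carried by endothelium and epithelium and binds Cx3cr1 on monocytes. It read 7.99, 7.99 and 8.02 in AKR_F1 and 7.71, 7.44 and 7.84 in DBA_F1. All AKR_F1 arrays were above all DBA_F1 arrays and lay close together. The difference was 0.34 ± 0.10 (adjusted p = 0.147), with a 95% interval from 0.0996 to 0.57, and the other tested probe set differed by 0.17. With the adipocyte mean as a covariate the value was -0.13 ± 0.23 (adjusted p = 0.975). Cxcl16, the ligand of Cxcr6 and a scavenger receptor in its own right, lay between 8.76 and 8.95 on all arrays (0.064 ± 0.058, adjusted p = 0.615). The 95% interval of its difference, from -0.074 to 0.20, was among the narrower ones.

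Ccl6 and Ccl9 are CC chemokines that mice and rats have and that macrophages and other myeloid cells make. Ccl6 read 11.27, 11.09 and 11.49 in AKR_F1 and 11.19, 11.23 and 11.47 in DBA_F1, with a difference of -0.015 ± 0.12 (95% interval from -0.29 to 0.26, adjusted p = 0.965). Ccl9 read 7.9997, 8.11 and 8.83 in AKR_F1 and 8.42, 8.62 and 8.74 in DBA_F1 (-0.28 ± 0.21, adjusted p = 0.537). On this Ccl9 probe set, AKR_F1 replicate 3 lay above all other arrays and its group mates below all other arrays. The value was -0.54 without that array and 0.24 for that array alone against DBA_F1. The other Ccl9 probe set differed by -0.41 (limma adjusted p = 0.278). There AKR_F1 replicate 3 (7.90) was below DBA_F1 replicates 2 and 3 (7.92 and 7.96).

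The inflammatory CC ligands call in monocytes and effector lymphocytes, and 4 of 7 were above the filter. Ccl5 is made by T and NK cells. It read 8.94, 9.61 and 9.80 in AKR_F1 and 9.69, 9.74 and 9.68 in DBA_F1 (-0.25 ± 0.20, adjusted p = 0.558), and without AKR_F1 replicate 1, its lowest array, the difference was 0.0030. Ccl3, a product of activated macrophages and T cells, read 4.86, 4.63 and 6.37 in AKR_F1 and 5.27, 4.40 and 4.64 in DBA_F1. Its difference of 0.52 ± 0.46 (adjusted p = 0.604) rested on AKR_F1 replicate 3 and was -0.027 without it. Ccl4, its neighbour on chromosome 11, was chosen after its values were seen and showed the same array apart (5.47, 5.27 and 6.35 in AKR_F1 against 5.48, 5.50 and 5.57 in DBA_F1). Ccl8 differed by -0.054 ± 0.20 (adjusted p = 0.92). The monocyte attractants Ccl2, Ccl7 and Ccl12 had means below the filter and were not tested.

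The ligands of Ccr4 and Ccr3 include Ccl17 and Ccl22, made by dendritic cells, and the eotaxins Ccl11 and Ccl24, which attract eosinophils. Ccl22 read 5.25, 5.28 and 5.72 in AKR_F1 and 5.84, 5.77 and 5.63 in DBA_F1 (-0.33 ± 0.14, adjusted p = 0.267), with AKR_F1 replicate 3 inside the DBA_F1 range. Ccl17 read 5.73, 5.95 and 6.38 in AKR_F1 and 6.15 to 6.30 in DBA_F1 (-0.20 ± 0.16, adjusted p = 0.549), with AKR_F1 replicate 3 above every DBA_F1 array. Ccl11 read 5.19, 5.08 and 5.70 in AKR_F1 and 5.64, 6.16 and 5.56 in DBA_F1 (-0.47 ± 0.21, adjusted p = 0.297), with AKR_F1 replicate 3 among the DBA_F1 arrays. For these 3 genes AKR_F1 replicates 1 and 2, the arrays with little squamous and skeletal muscle signal, were the lowest arrays. AKR_F1 replicate 3 alone against DBA_F1 gave -0.031 for Ccl22. The squamous mean mainly sets AKR_F1 replicates 1 and 2 apart from the other arrays. As a covariate it leaves a group term close to AKR_F1 replicate 3 against DBA_F1, for every gene named with it. It is therefore no separate test of that tissue. With it Ccl22 was at -0.049 ± 0.12 (adjusted p = 0.931). For these 3 genes the part of those tissues was not tested. Ccl24 did not share this order of arrays (-0.025 ± 0.11, adjusted p = 0.934).

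Among the homing CC ligands, Ccl25 is made by thymic epithelium and the small intestine and guides Ccr9-bearing thymocytes and T cells. It read 5.19, 5.27 and 7.93 in AKR_F1 and 5.15, 5.02 and 4.98 in DBA_F1. AKR_F1 replicate 3 stood 2.69 log2 above the mean of its group mates, while those differed from the DBA_F1 mean by only 0.18. The group difference was 1.08 ± 0.68 (95% interval from -0.53 to 2.69, adjusted p = 0.447), and 0.18 without AKR_F1 replicate 3. AKR_F1 replicate 3 alone against DBA_F1 differed by 2.88, a value that rests on 1 array. The other tested probe set of Ccl25 read 4.77 to 4.99 on all arrays and showed no such array. Ccl28, a mucosal ligand, differed by 0.025 ± 0.12 (adjusted p = 0.938). Ccl1 and Ccl20 were below the filter.

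Of the 7 neutrophil-attracting and interferon-inducible CXC ligands, 2 were above the filter. Of Cxcl1, Cxcl2, Cxcl3 and Cxcl5, which act on Cxcr2, only Cxcl1 was above the filter, with 7.28, 7.004 and 7.33 in AKR_F1 and 7.11, 7.14 and 7.36 in DBA_F1 (0.0019 ± 0.11, adjusted p = 0.995). Cxcl2 read 3.28, 2.93 and 4.23 in AKR_F1 and 3.04, 3.32 and 5.47 in DBA_F1. It was below the filter on average and was not tested, but replicate 3 was the highest array within both groups. Of Cxcl9, Cxcl10 and Cxcl11, ligands of Cxcr3 that interferon gamma induces, only Cxcl10 was tested (0.094 ± 0.16, adjusted p = 0.804). Xcl1, a product of NK and CD8 T cells, was below the filter.

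**Figure D2:**
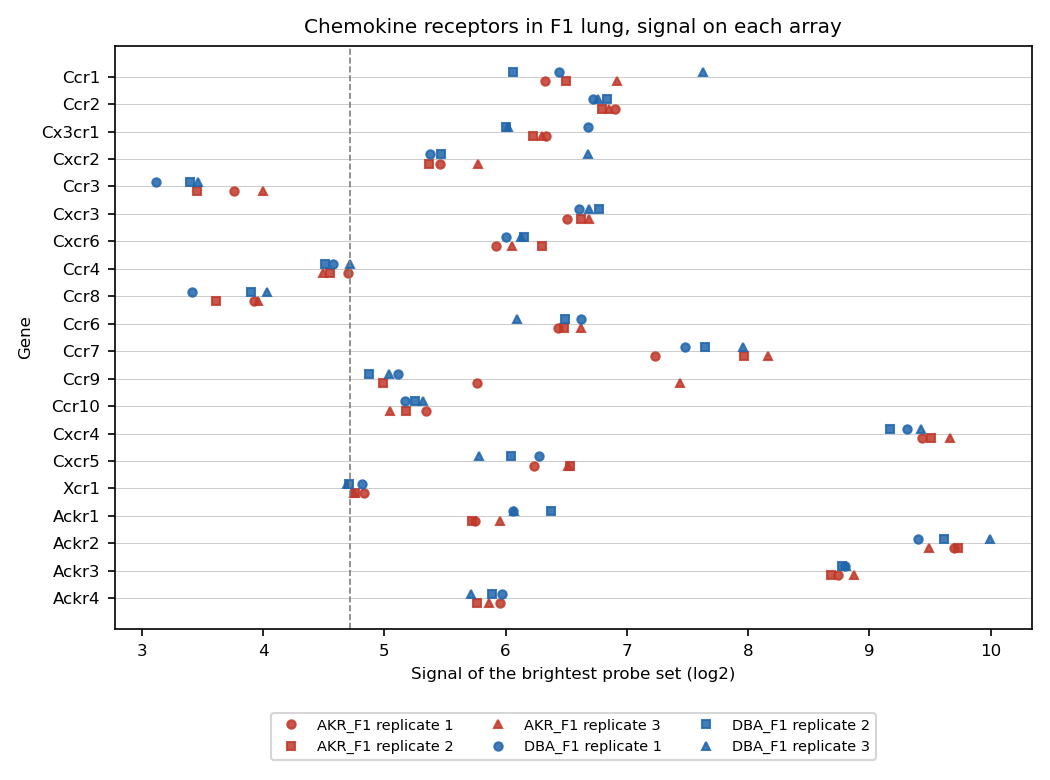
Signal (log2, horizontal axis) of the brightest probe set of each of the 20 receptor genes (vertical axis) on the 6 arrays, in red for AKR_F1 and blue for DBA_F1, with a symbol for each replicate; the dashed line is the filter at 4.72. Ccr9 on AKR_F1 replicate 3 (7.44) and Ccr1 and Cxcr2 on DBA_F1 replicate 3 (7.63 and 6.68) lie apart from the other arrays.

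Of the homing receptors, Cxcr4 binds Cxcl12 and is carried by most leukocytes and by some endothelial cells. It read 9.44, 9.50 and 9.66 in AKR_F1 and 9.31, 9.17 and 9.43 in DBA_F1. The groups did not overlap, with 9.44 against 9.43 at the nearest arrays, and the difference was 0.23 ± 0.086 (adjusted p = 0.215). Cxcr5, which brings B cells to Cxcl13, read 6.23, 6.53 and 6.51 in AKR_F1 and 6.28, 6.04 and 5.78 in DBA_F1 (0.39 ± 0.14, adjusted p = 0.216), and the groups overlapped at AKR_F1 replicate 1 and DBA_F1 replicate 1. Of the 4 B cell markers 0 were called, beside 2.48% of all tested genes. Their mean was 7.62 to 8.32 in AKR_F1 and 7.76 to 8.12 in DBA_F1. Ccr7, which takes dendritic cells and naive T cells to lymph nodes, spread as widely within groups as between them, with 7.23, 7.97 and 8.16 in AKR_F1 and 7.48, 7.65 and 7.96 in DBA_F1 (0.092 ± 0.24, adjusted p = 0.881). Ccr6, the Ccl20 receptor of B cells and Th17 cells, read 6.43 to 6.62 in AKR_F1 and 6.09 to 6.63 in DBA_F1 (0.11 ± 0.14, adjusted p = 0.73), and Ccr10 differed by -0.058 ± 0.099 (adjusted p = 0.805).

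Ccr9, the Ccl25 receptor of thymocytes and gut-homing T cells, read 5.76, 4.99 and 7.44 in AKR_F1 and 5.11, 4.87 and 5.04 in DBA_F1. AKR_F1 replicate 3 was the highest array, as for Ccl25, and AKR_F1 replicate 1 came next. The difference was 1.06 ± 0.55 (adjusted p = 0.359) and 0.37 without AKR_F1 replicate 3. This array alone against DBA_F1 differed by 2.43, again a value that rests on 1 array. A pair of other Ccr9 probe sets below the filter showed the same order, with 4.97, 4.06 and 6.22 on the AKR_F1 arrays for one and 4.04, 3.41 and 5.05 for the other, while the remaining 2 were at 2.86 to 3.15 on every array.

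Thymocyte markers had the same order of arrays. The recombinase gene Rag1 read 6.51, 3.08 and 8.55 in AKR_F1 and 2.838 to 3.003 in DBA_F1, and the terminal transferase Dntt read 5.86, 4.79 and 7.83 against 4.38 to 4.59. All 7 thymocyte markers were highest on AKR_F1 replicate 3, and so were all 4 T cell markers examined, with a mean of 8.55 on that array against 7.81 to 7.94 on the others. In all, 3 of 37 tested members (Ccl25, Ccr9 and Ccl3) were more than 1 log2 above the mean of their AKR_F1 group mates on this array, beside 1.64% of all tested genes. AKR_F1 replicate 3 gave the highest value of the 6 arrays for 14 of the 37 tested members, beside 13.9% of all tested probe sets. The part of thymus or T cells in these values was not tested.

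**Figure D3:**
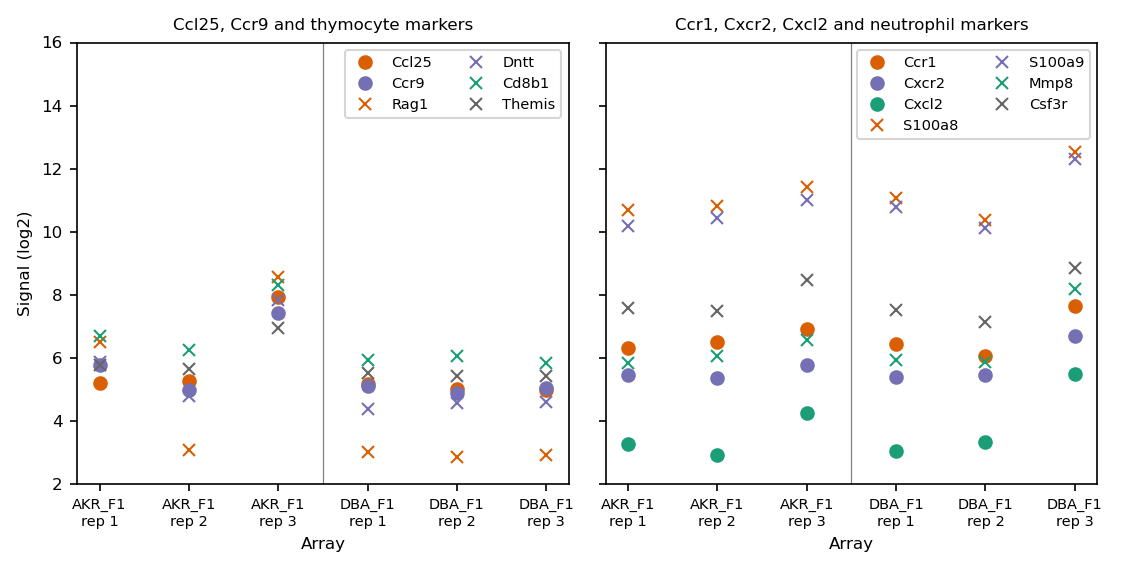
Signal (log2, vertical axis) on each of the 6 arrays (horizontal axis) for chemokine genes (filled circles) and marker genes (crosses). On the left Ccl25 and Ccr9 are highest on AKR_F1 replicate 3 (7.93 and 7.44), where Rag1 reads 8.55; on the right Ccr1, Cxcr2 and Cxcl2 are highest on DBA_F1 replicate 3 (7.63, 6.68 and 5.47), where S100a8 reads 12.53.

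The granulocyte and monocyte receptors include Cxcr2, the receptor of neutrophils for Cxcl1 and Cxcl2. Cxcr2 read 5.46, 5.37 and 5.77 in AKR_F1 and 5.37, 5.47 and 6.68 in DBA_F1, and its difference of -0.31 ± 0.34 (adjusted p = 0.681) was 0.11 without DBA_F1 replicate 3. Ccr1, the receptor of neutrophils and monocytes for Ccl3, Ccl5, Ccl6 and Ccl9, read 6.32, 6.50 and 6.92 in AKR_F1 and 6.44, 6.06 and 7.63 in DBA_F1 (-0.13 ± 0.38, adjusted p = 0.896), and 0.33 without DBA_F1 replicate 3. On both receptors the highest array was DBA_F1 replicate 3 and the highest AKR_F1 array was replicate 3. The neutrophil markers had the same highest arrays: S100a8 read 12.53 on DBA_F1 replicate 3 and 10.37 to 11.41 elsewhere, and the collagenase Mmp8 read 8.17 against 5.84 to 6.57. The 2 receptors, of 37 tested members, were more than 1 log2 above their group mates on this array, beside 0.189% of all tested genes. The part of neutrophils in these values was not tested. Ccr3, the eotaxin receptor, was below the filter.

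Ccr2 brings monocytes out of the blood in answer to Ccl2. Its brightest probe set lay between 6.72 and 6.90 on all arrays (0.075 ± 0.065, adjusted p = 0.594). Another probe set read 6.65, 6.49 and 6.64 in AKR_F1 and 6.65, 5.87 and 5.52 in DBA_F1, with a difference of 0.58 (adjusted p = 0.29). On that probe set DBA_F1 replicates 2 and 3 were below all AKR_F1 arrays while DBA_F1 replicate 1 was among them. Cx3cr1, the fractalkine receptor of patrolling monocytes, had the same highest array within DBA_F1, with 6.68 on replicate 1 and 6.0002 and 6.02 on replicates 2 and 3, and 6.22 to 6.33 in AKR_F1 (0.052 ± 0.18, adjusted p = 0.911). Of 6 markers of mononuclear phagocytes 1 was called, Csf1r (0.23, limma adjusted p = 0.0439), beside 2.48% of all tested genes. The differences of these 6 markers ranged from -0.48 to 0.37, and 4 were below 0. Their mean was 8.43 to 8.78 in AKR_F1 and 8.67, 8.70 and 8.65 in DBA_F1. Within DBA_F1, Ms4a7, Csf1r and Cd68 were highest on replicate 1, while C1qa, C1qb and Cd14 were lowest there. The part of mononuclear phagocytes in these values was not tested.

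The receptors of T cells in inflamed tissue were close in both groups. Cxcr3, the receptor of Th1 and cytotoxic cells, read 6.51 to 6.69 in AKR_F1 and 6.61 to 6.77 in DBA_F1 (-0.083 ± 0.078, 95% interval from -0.27 to 0.10, adjusted p = 0.623). Cxcr6, the receptor of tissue-resident T cells, differed by -0.0021 ± 0.11 (95% interval from -0.26 to 0.25, adjusted p = 0.995). Ccr4 and Ccr8 were below the filter. Xcr1, which marks cross-presenting dendritic cells, was just above it (0.040 ± 0.079, adjusted p = 0.836).

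All 4 atypical receptors were tested. Ackr1, the chemokine receptor of red cells and venules, read 5.75, 5.73 and 5.96 in AKR_F1 and 6.06, 6.38 and 6.07 in DBA_F1. The groups did not overlap, and the difference of -0.36 ± 0.11 (95% interval from -0.63 to -0.093) had an adjusted p of 0.164. With the squamous covariate it was -0.20 ± 0.14 (adjusted p = 0.654), and with the adipocyte covariate -0.080 ± 0.32 (adjusted p = 0.989). Of the 3 tested receptors at an unadjusted p under 0.05 in the limma fit, Ackr1 was the 1 with a value toward DBA_F1. Ackr2, which clears inflammatory CC chemokines at lymphatic endothelium, read 9.70, 9.73 and 9.50 in AKR_F1 and 9.40, 9.62 and 9.997 in DBA_F1 (-0.030 ± 0.15, adjusted p = 0.943). Ackr3, which takes up Cxcl12, lay between 8.68 and 8.87 on all arrays (-0.027 ± 0.060, 95% interval from -0.17 to 0.11). Ackr4, the scavenger of Ccl19, Ccl21 and Ccl25, differed by 0.0015 ± 0.094 (95% interval from -0.22 to 0.22).

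**Figure D4:**
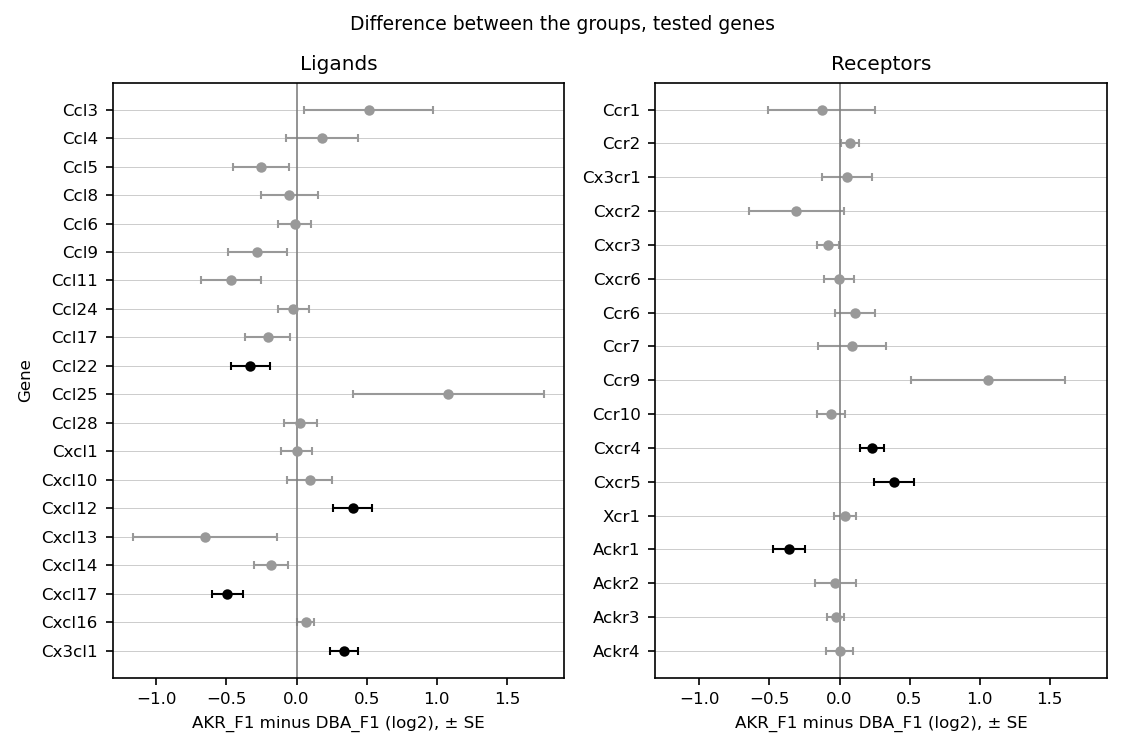
Difference AKR_F1 minus DBA_F1 (log2, horizontal axis) with its SE for the 20 tested ligands (left) and the 17 tested receptors (right), n = 3 arrays per group; black marks an unadjusted p under 0.05. The black points are Ccl22, Cxcl12, Cxcl17 and Cx3cl1 among ligands and Cxcr4, Cxcr5 and Ackr1 among receptors, and the widest bars belong to Ccl25, Ccr9 and Cxcl13.

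Ligands are set beside their receptors here, and each value is a difference in log2 (AKR_F1 minus DBA_F1) that was not called. Cxcl12 and Cxcr4 were both toward AKR_F1 (0.40 and 0.23) while Ackr3, which also binds Cxcl12, was at -0.027. Cx3cl1 was at 0.34 and Cx3cr1 at 0.052. Cxcl13 was at -0.65 and Cxcr5 at 0.39, in opposite directions. Cxcl16 and Cxcr6 were at 0.064 and -0.0021. Ccl25 and Ccr9 were at 1.08 and 1.06, and at 0.18 and 0.37 without AKR_F1 replicate 3.

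Several probe sets could be compared within 11 genes, of which 7 had the same sign in all tested probe sets and 4 did not. The tested probe sets of Ccl6 (-0.015 and -0.011), Cxcl1 (-0.087 to 0.0019) and Ackr2 (-0.066 to 0.016) lay close together. Those of Cxcl12 spanned -0.34 to 0.40, those of Ccr2 0.075 to 0.58 and those of Ccl25 0.054 to 1.08. For Cxcl14 the other probe set differed by -0.52 where the brightest differed by -0.18, and for Cxcl13 by -1.03 where the brightest differed by -0.65. None of the 53 tested probe sets of member genes was called in the limma fit, beside 707 of all 27022 tested probe sets.

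**Figure D5:**
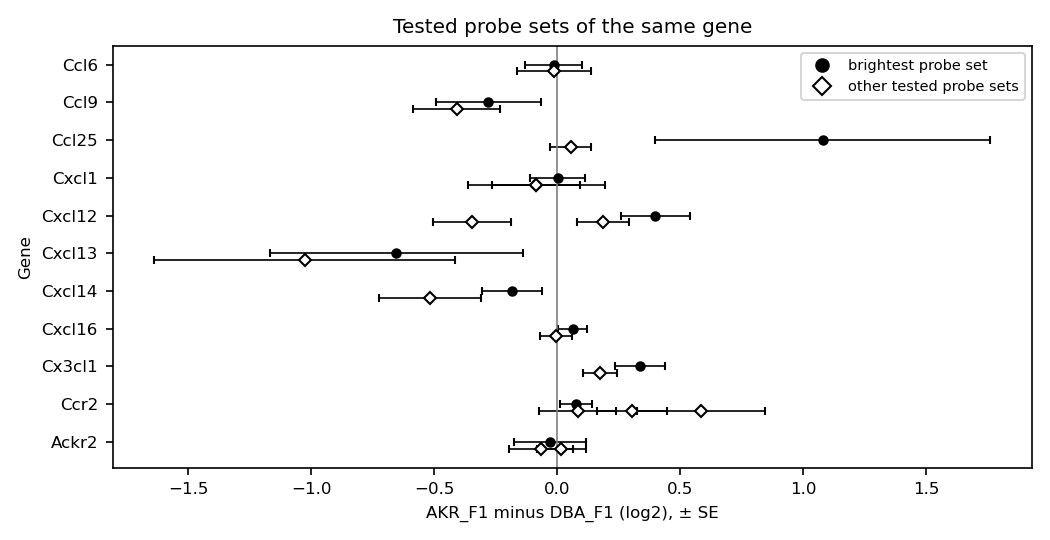
Difference AKR_F1 minus DBA_F1 (log2, horizontal axis) with its SE for the 11 member genes with several tested probe sets (vertical axis), n = 3 arrays per group; filled circles are the brightest probe sets and open diamonds the others. Cxcl12 has probe sets on both sides of 0 (-0.34 and 0.40), and the probe sets of Ccl6 coincide.

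Chemokine genes lie in clusters that arose by duplication, and in the order of genes in the RefSeq table (GRCm38.p6) neighbours had differences on both sides of 0. On chromosome 11, Ccl5, Ccl9, Ccl6, Ccl3 and Ccl4 form a cluster, and their differences ran from -0.28 to 0.52, with 2 above and 3 below 0. On chromosome 8, Ccl22, Cx3cl1 and Ccl17 are close neighbours, with Cx3cl1 at 0.34 and Ccl22 at -0.33. In the receptor cluster on chromosome 9, with Ccr9, Cxcr6, Xcr1, Ccr1, Ccr3 and Ccr2, 5 genes were tested, and their differences ran from -0.13 to 1.06.

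Among signalling genes downstream of these receptors, Pik3cg and Stat3 were called, both higher in AKR_F1 by their brightest probe sets. They were 2 of 23 tested genes, of 26 listed G protein and effector genes, beside 2.48% of all tested genes. Pik3cg encodes the catalytic subunit of PI3-kinase gamma, which Gi-coupled receptors switch on in leukocytes. It read 6.70, 6.71 and 6.96 in AKR_F1 and 5.89, 5.75 and 5.87 in DBA_F1, with every AKR_F1 array above every DBA_F1 array. By this probe set it was 1.93-fold higher in AKR_F1 (0.95 ± 0.094, limma adjusted p = 0.00485). The adjusted p stayed between 0.00325 and 0.0297 when any 1 array was left out. With the adipocyte covariate the value was 0.67 ± 0.26 and was not called (adjusted p = 0.957). That covariate is nearly tied to genotype, so the fit can hardly separate them. The other Pik3cg probe set was below the filter and overlapped between groups (4.39 to 4.97 and 4.53 to 4.77).

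Stat3, a transcription factor activated by cytokine receptors, was 1.18-fold higher by its brightest probe set (0.23 ± 0.042, adjusted p = 0.0377), a call lost when any 1 array was left out (adjusted p from 0.0561 to 0.148). It was also lost with no filter (adjusted p = 0.051) and with eBayes without a trend (adjusted p = 0.0937). The squamous and adipocyte covariates also left Stat3 uncalled (adjusted p = 0.126 and 0.958). Its 3 other tested probe sets differed by -0.31 to -0.022, and the mean of its probe sets by -0.038. Of the 23 tested effectors 21 had differences above 0, beside 7280 of 13202 tested genes, with a median of 0.11 beside 0.015. Of the 7 lung markers 6 also had differences above 0 (median 0.19, 1 called), and all 6 adipocyte markers had differences below 0 (median -1.78, 5 called). The part of tissue makeup in the effector values was not tested. Of 8 tested genes of receptor desensitisation (G protein-coupled receptor kinases, arrestins and Rgs proteins) 0 were called in the limma fit, 3 had an unadjusted p under 0.05 and 6 had differences above 0. The shares over all tested genes were 2.48% called and 19.1% at that unadjusted p.

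Related chemoattractant genes with other symbols gave 0 calls among 15 tested in the limma fit, with 4 at an unadjusted p under 0.05, beside 2.48% and 19.1% of all tested genes. The platelet chemokines had opposite signs: Ppbp (Cxcl7) read 8.81, 9.65 and 9.001 in AKR_F1 and 9.97, 10.09 and 10.24 in DBA_F1 (-0.95 ± 0.20, adjusted p = 0.0668), and Pf4 (Cxcl4) read 9.33, 10.01 and 9.51 against 8.87, 9.25 and 9.39 (0.45 ± 0.20, adjusted p = 0.285). For Ppbp every DBA_F1 array was above every AKR_F1 array, and without AKR_F1 replicate 2 it was called (-1.19, adjusted p = 0.0111). Both genes are products of megakaryocytes and platelets.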

How the data were processed

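Total RNA was measured on Affymetrix 3′ arrays. The deposited values are log2 signals per probe set and were used as deposited; MAS5 and RMA are both named in the submitters' processing notes, without the step each served. No detection calls were used. Precision is limited by having 3 arrays per group. Control probe sets (64) were removed, and the lowest 40% by mean over the 6 arrays were left out (4.72 or less). Groups were compared with limma 3.58.1 in R 4.3.3 (lmFit, eBayes with trend, group as the only term, two-sided), with Benjamini-Hochberg adjustment over 27022 probe sets. SEs are moderated, and 95% intervals use 4 residual and 3.06 prior degrees of freedom. The model was tested on simulated data first.

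Members, lists, tests and alternatives were chosen with earlier results of these data known. Named members are those called, those with an unadjusted p under 0.05, the 8 ligands and 8 receptors of highest mean, and the 4 of each kind with the largest difference. Of the signalling and related genes, the called ones and the 3 with the largest difference are named. Other genes named were chosen after their values were seen. All 51 member genes were found by gene ID in the RefSeq table of GRCm38.p6, whose promoter sequences are printed.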

Additional observations from a re-analysis of the deposited data

How the results depend on the processing

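Of 19 alternatives, quantile normalization, median centring, no filter, a 60% filter, eBayes without a trend, robust eBayes, the replicate block and taking the mean or the most variable of a gene's probe sets called 0 members. With a 60% filter the median difference of tested receptors was 0.052. Array weights called 1198 probe sets and 1 ligand, and Ackr2 was at 0.016. AKR_F1 replicate 3 alone against DBA_F1 called 85 probe sets, 1 ligand and 1 receptor (medians of 0.14 and 0.066), with sign changes for Ccl6 (0.19), Ccl5 (0.10), Ccl9 (0.24), Ackr3 (0.078), Cxcr3 (0.0016) and Ccr1 (0.21). The squamous covariate called 263 probe sets, 1 ligand and 1 receptor (medians of 0.13 and 0.0485), with Ccl6 at 0.17, Ccl5 at 0.067, Ccl9 at 0.19, Ackr3 at 0.069, Cxcr3 at 0.0012 and Ccr1 at 0.099. The adipocyte covariate called 4 probe sets (medians of -0.21 for ligands and -0.080 for receptors), with Cxcl16 at -0.0050, Cx3cl1 at -0.13, Ccl25 at -0.22, Ccl3 at -0.38, Cxcr4 at -0.21, Ccr7 at -1.17 and Pf4 at -0.21. The most variable probe set put Cxcl16 at -0.0055 and Stat3 at -0.31, and the mean of its probe sets put Stat3 at -0.038. With 1 array left out, called probe sets ran from 198 to 1171 (707 with all arrays) and called ligands from 0 to 2. Over the same fits Ccl5 ran from -0.43 to 0.0030, Ccl6 from -0.12 to 0.083, Ackr3 from -0.080 to 0.014, Ccl3 from -0.027 to 0.84, Ackr2 from -0.17 to 0.13, Ccr7 from -0.096 to 0.37, Ccr1 from -0.45 to 0.33, Ccr6 from -0.047 to 0.22 and Cxcr2 from -0.54 to 0.11. The cause of these moves was not tested.

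With the replicate block Stat3 was not called (adjusted p = 0.086). The labels do not say whether the replicate numbers pair the arrays. Deviations of same-numbered arrays correlated at 0.31, -0.23 and -0.050, and 2 of 6 arrays correlated best with their own number. These values do not settle it. With the replicate block 539 probe sets were called and 0 members. None of the 24 named members was called in the main fit, so none could lose a call. Of their 449 values under alternatives, 409 kept direction and stayed uncalled, 8 gained a call and 32 changed sign. Signals below 4.72 have no stated background limit.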
